A study of Mus musculus with 3 samples.

Results

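The comparison described here sets mouse cortical neurons that spent 7 hours in 0.2% oxygen and received 5 nM T3 (triiodothyronine, the active form of thyroid hormone) against the normoxic control in 21% oxygen. The study measured total RNA in primary cortical neurons of C57BL/6 mice, taken at embryonic day 17 and grown for 7 days before treatment. It has 3 groups with 1 library each: the control, hypoxia without T3, and hypoxia with T3. The labels do not state what hormone the control medium held, how many embryos were pooled, or whether the control was handled for the same 7 hours. No group in 21% oxygen is labelled as given T3. A gene entered the comparison when its mean over the 3 libraries was at least 1 CPM (read counts per library, normalised by the authors to a common library size), which held for 12692 of 24054 genes. Differences are log2 ratios after 1 CPM was added to each value, and a gene is counted as higher or lower when that ratio reaches 2-fold. Folds are printed from CPM as deposited, with nothing added, and carry exact 95% Clopper-Pearson intervals on the reads. These intervals cover counting error only and were not widened for the number of genes. With 1 library on each side there is no replicate check and no test, so every difference is a difference between these libraries.

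Cells sense oxygen through prolyl hydroxylases that mark the alpha subunits of the hypoxia-inducible factors (HIF) for destruction. When oxygen is scarce these factors accumulate, bind a short core element near their targets and raise transcription of glucose transporters, glycolytic enzymes and angiogenic signals. T3 acts mainly through nuclear receptors encoded by Thra and Thrb, which sit on DNA next to their targets and exchange corepressors for coactivators when the hormone binds. In the developing cortex T3 shapes neuronal maturation, and Hr and Klf9 are textbook direct targets.

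Values are given in the order control, hypoxia, hypoxia with T3 wherever 3 stand together. Recovered read totals were 18081904, 17118865 and 22533574, over 16927, 16886 and 17253 genes with a read. The deposited CPM sum to 837997, 945496 and 958205, so the authors' scaling places the control lower in total than the hypoxic libraries. All 14 pan-neuronal markers listed passed the minimum and summed to 9182, 10080.3 and 10129 CPM. With T3, 12 of them lay above control (median log2 ratio 0.32), as did Map2, a protein of dendritic microtubules, at 1429, 1555 and 1588 CPM. Of the 14, 1 was at least 2-fold higher and 1 lower, each 7.14% of the list, against 2.06% higher and 4.59% lower over all genes. The lower one was the neuronal beta-tubulin gene Tubb3, at 1771, 873 and 739 CPM. Markers of other cells were present too. The 12 astrocyte markers summed to 1036, 1139 and 1219 CPM, and the 14 markers of the oligodendrocyte lineage to 367, 219 and 223 CPM. The 12 microglial markers summed to 10.5, 15.9 and 17.1 CPM and 2 of them passed the minimum, and Tmem119 had 0 reads in both hypoxic libraries. The 12 endothelial and mural markers summed to 4.03, 3.59 and 3.70 CPM and 1 passed, with Kcnj8 at 0 reads throughout. The part of these cells in the differences below was not tested, and in bulk RNA fewer cells of a type and less RNA per cell cannot be told apart. The ribosomal RNA precursor Rn45s took 0.310%, 0.541% and 0.903% of reads, and its part in the differences was not tested either.

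Hypoxia with T3 differed from control by 2-fold or more for 262 higher genes (2.06% of those compared) and 582 lower genes (4.59%). The median log2 ratio over all genes was 0.08, the quartiles were -0.29 and 0.35, and 78.2% of genes lay within 1.5-fold of control. At 4-fold or more, 53 genes were higher and 40 lower, and at 8-fold or more 23 were higher and 4 lower. The balance of higher and lower genes moved with the scaling. When the libraries were brought to the same sum instead, there were 199 higher and 920 lower genes, so that 82.2% of the called genes were lower in place of 69.0%, and the median over all genes was -0.10. With median-of-ratios size factors there were 225 higher and 694 lower genes. The hypoxia library without T3 stood 2-fold or more from the same control for 252 higher and 624 lower genes (1.99% and 4.92%). Between the hypoxic libraries only 16 genes were higher with T3 and 8 lower by that measure (0.126% and 0.063%).

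**Figure D1:**
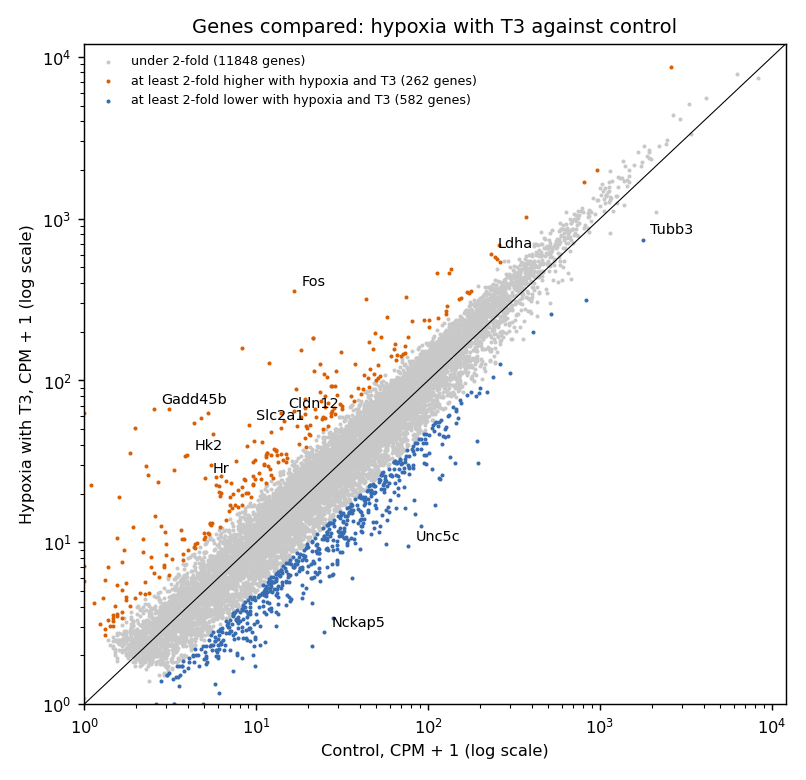
Each point is a compared gene, placed by CPM + 1 in the control (horizontal, log scale) and in hypoxia with T3 (vertical, log scale), with the diagonal marking equal values. The 262 higher genes (orange) include Fos, Gadd45b and Hk2, and the 582 lower genes (blue) include Unc5c and Nckap5.

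Several of the genes farthest above control were immediate early genes, which neurons switch on within minutes of a stimulus without new protein synthesis. Of 35 compared members of that list, 26 were at least 2-fold higher and 0 lower, against 2.06% and 4.59% of all genes compared, with a median log2 ratio of 1.98 against 0.08 over all genes. Fos, which pairs with Jun proteins to form AP-1, read 15.6, 392 and 355 CPM. It stood 22.8-fold above control with T3 (20.4 to 25.5). Its relative Fosb read 2.13, 91.9 and 65.7 CPM, and Junb, which joins either in AP-1, read 7.32, 190 and 158 CPM. For these 3 subunits both hypoxic libraries were far above control and the library with T3 was the lower of the pair. Gadd45b, a stress gene that has also been linked to DNA demethylation, had the highest log2 ratio of the genes named, with 1.53, 56.1 and 65.3 CPM, a 42.7-fold difference (30.3 to 62.2). Its relatives were also high: Gadd45g read 3.75, 63.9 and 57.5 CPM, while 1.2, 7.62 and 9.44 CPM were read for Gadd45a. Arc, which regulates AMPA receptor uptake at synapses, read 1.30, 31.2 and 28.5 CPM. The matricellular gene Cyr61 read 3.34, 65.3 and 53.9 CPM. Sertad1 (0.834, 33.5 and 34.8 CPM) and Arl4d (4.22, 60.1 and 62.3 CPM) lay in the same range. Across the list the median log2 ratio of the T3 library over the hypoxia library was -0.22, and 29 of 35 members lay below 0 on that ratio, against a median of 0.01 over all genes.

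Targets of HIF also lay above control, at values with T3 close to those of hypoxia alone. Of 35 compared HIF targets 17 (48.6%) stood 2-fold or more above control and 0 below, with a median log2 ratio of 0.78. Of 20 glycolytic genes 12 (60%) were higher and 0 lower, with a median of 1.06. Over all genes compared 2.06% were higher and 4.59% lower, and the median was 0.08. Hk2, the hexokinase isoform that traps glucose in the cell, read 2.97 CPM in control, 36.2 in hypoxia and 33.6 with T3, or 11.3-fold above control (8.78 to 14.9). The glucose transporter Slc2a1 read 8.06, 51.1 and 51.7 CPM. Pfkfb3, which makes the activator of phosphofructokinase, read 73.3, 308 and 326 CPM, and Ldha, which turns pyruvate into lactate, read 230, 610 and 606 CPM. Vegfa, the main angiogenic ligand, read 47.0, 147 and 155 CPM, a 3.29-fold difference from control (3.07 to 3.53). Pdk1, which holds pyruvate back from the mitochondrion, read 41.6, 103 and 106 CPM. For each of these genes the hypoxic libraries stood together and the control alone. Ankrd37 had few reads in control (0.371, 6.08 and 6.04 CPM), and its fold of 16.3 had a wide interval (8.04 to 38.5). Hif1a itself read 104, 96.2 and 103 CPM. The medians over T3 against hypoxia were 0.07 for HIF targets and 0.02 for glycolysis.

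The promoters of Hk2 and Ldha are printed because these genes carry the hypoxic side of the comparison. Each window holds 300 bases, from 250 before to 50 after the transcription start in RefSeq (GRCm38.p6), and capitals mark the hypoxia response core ACGTG or GCGTG on either strand. Hk2 lies at chr6:82774405-82774704 on the minus strand and Ldha, with the first of its 2 listed windows, at chr7:46845554-46845853 on the plus strand.
Hk2: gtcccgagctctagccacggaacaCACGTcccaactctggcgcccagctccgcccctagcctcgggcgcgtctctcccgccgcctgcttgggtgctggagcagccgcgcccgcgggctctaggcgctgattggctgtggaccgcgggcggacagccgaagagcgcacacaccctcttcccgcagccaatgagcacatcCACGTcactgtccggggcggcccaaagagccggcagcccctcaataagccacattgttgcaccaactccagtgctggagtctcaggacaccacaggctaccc
Ldha: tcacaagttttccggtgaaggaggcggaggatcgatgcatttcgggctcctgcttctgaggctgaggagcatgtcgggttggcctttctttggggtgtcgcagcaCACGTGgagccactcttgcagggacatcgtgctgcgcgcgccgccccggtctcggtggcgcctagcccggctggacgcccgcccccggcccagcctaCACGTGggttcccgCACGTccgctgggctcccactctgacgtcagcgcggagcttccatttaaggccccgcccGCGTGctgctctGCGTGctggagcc
The Hk2 window has matches to ACGTG starting 226 and 52 bases before the start site. In the Ldha window the matches to ACGTG begin 145 bases before the start, and those of GCGTG lie past it. CACGTG reads the same on both strands and so holds the core on each. The core is short and frequent. ACGTG occurs in 26.1% of the 9536 windows of compared genes and in 58.6% of the 29 windows of HIF targets. It occurs in 36.0% of the 197 windows of genes higher with T3 than control, and in 21.3% of the 451 windows of lower genes. Other lists were high as well, with ACGTG in 44.4% of 27 windows of immediate early genes. For genes that thyroid hormone induces in other settings the share was 42.9% of 21 windows. GCGTG occurs in 53.1% of the windows of compared genes and in 72.4% of those of HIF targets. A match is a string of letters and not a measured binding site.

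At the 2-fold limit genes below control were more numerous than those above, at 582 against 262, while at 4-fold there were 40 against 53. The lower genes named here include regulators of transcription and adhesion proteins of developing neurons. Nckap5 read 23.9 CPM in control, 1.88 in hypoxia and 1.79 with T3, or 13.4-fold lower than control (9.75 to 18.8). Maml2, a coactivator of Notch signalling, read 20.1, 1.99 and 1.28 CPM and was 15.7-fold lower (10.9 to 23.6). In both genes the control library stood alone and the hypoxic libraries overlapped within counting error. The chromatin remodeller Chd7 read 35.2, 5.14 and 4.98 CPM and the repressor gene Trps1 read 20.1, 2.65 and 3.19 CPM. Zswim6 read 90.3, 13.0 and 11.7 CPM, and the transcription regulators Runx1t1 and Rfx3 read 83.1, 15.1 and 13.9 CPM and 116, 29.7 and 23.5 CPM. The adhesion protein gene Flrt2 read 109, 20.0 and 15.9 CPM. For each of these 8 genes the control was the highest of the 3 libraries by several fold.

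A gene is called moved back here when its value with T3 lay closer to control than its value in hypoxia alone. The rule asks for at least a 1.5-fold difference between hypoxia and control, no more than 50% of that log2 difference left with T3, and an interval of T3 over hypoxia that excludes 1. It held for 108 genes (0.851%), of which 77 were low in hypoxia (0.607%) and 31 were high (0.244%). The hypoxia library enters both ratios, so a deviation of that library alone and a return with T3 cannot be told apart. Under the deposited scaling the interval of T3 over control held 1 for 31 of the 77 and 24 of the 31 genes. The others had not reached control or had passed it. These counts were not made under the other scalings. Tcf7l1, a Wnt pathway transcription factor picked after its values were seen, met the rule at 2.97, 0.608 and 1.70 CPM and was still 1.74-fold below control (1.16 to 2.66). Past the control value, again under the deposited scaling, lay 8 of the 77 and 3 of the 31 genes. The steps were small, with median log2 steps between the hypoxic libraries of 0.52 and 0.49, and only 10 of the 77 and 2 of the 31 genes had reached 2-fold in hypoxia. Predicted gene models or genes with near-identical copies made up 10 of the 77 and 8 of the 31.

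Kcnj10, the inward-rectifying potassium channel Kir4.1 that astrocytes and oligodendrocytes use to clear potassium, read 30.03 CPM in control, 17.4 in hypoxia and 36.1 with T3 (chromosome 1, 172341210 to 172374085, plus strand, GRCm38). Under the deposited scaling the T3 library was 2.08-fold above hypoxia (1.82 to 2.37) and 1.2-fold above control (1.08 to 1.33), the highest of the 3. Mfap3l read 34.1, 18.2 and 37.8 CPM. Its step over hypoxia was 2.07-fold (1.82 to 2.36), while its place relative to control turned from above to below when libraries were scaled to the same sum.

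Epha4, an ephrin receptor that repels growing axons and trims dendritic spines, read 93.5, 46.7 and 87.1 CPM (chromosome 1, 77367185 to 77515088, minus strand). With T3 it was 1.86-fold above hypoxia (1.72 to 2.02) and 1.07-fold below control (1.01 to 1.14). Arhgap20, a GTPase-activating protein gene, read 144, 77.5 and 140 CPM, with T3 at 1.03-fold below control (0.976 to 1.08). In both the hypoxia library stood apart from the control and T3 libraries. Their folds against control are for the deposited scaling. Sorl1, the sorting receptor that steers the amyloid precursor protein away from cleavage, read 17.8, 8.17 and 14.5 CPM, so T3 was 1.77-fold above hypoxia (1.45 to 2.16) and still 1.23-fold below control (1.06 to 1.43).

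Several other named genes with this order encode channels, calcium-handling proteins or adhesion proteins. Lrrc55, an auxiliary subunit of calcium-activated potassium channels, read 38.7, 19.6 and 31.4 CPM. The potassium leak channel gene Kcnk1 read 16.6, 9.55 and 14.7 CPM. Itpr1, the receptor that releases calcium from the endoplasmic reticulum, read 92.6, 50.5 and 73.4 CPM, and with T3 it was 1.26-fold below control (1.18 to 1.35). Elfn1, a postsynaptic adhesion protein of interneurons, read 13.8, 7.95 and 11.9 CPM. The immunoglobulin adhesion gene Igsf9 read 43.7, 25.7 and 37.3 CPM and the ciliary gene Wdr60 read 8.71, 4.58 and 7.02 CPM. For these 6 the T3 value lay between hypoxia and control and nearer to control. With libraries scaled to the same sum Itpr1 no longer met the rule. Inhba, the activin subunit gene, was picked after its values were seen and read 6.81, 2.71 and 5.06 CPM.

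In the opposite direction, Gfap, the intermediate filament of astrocytes, read 15.2 CPM in control, 23.7 in hypoxia and 13.9 with T3 (chromosome 11, 102887336 to 102900912, minus strand). Under the deposited scaling T3 was 1.71-fold below hypoxia (1.48 to 1.98) and 1.09-fold below control (0.932 to 1.27). Hypoxia exceeded control by little more than the 1.5-fold minimum, and under both other scalings Gfap did not meet the rule. Other astrocyte markers had other orders: Glul, the glutamine synthetase gene, read 184, 285 and 312 CPM, Aldoc 56.9, 83.4 and 72.4 CPM, Aldh1l1 29.6, 31.04 and 36.0 CPM, and Sox9 45.6, 57.2 and 55.2 CPM. Gfap was the single member of that list of 11 compared that met the rule. Ubald2 read 10.1, 16.3 and 8.80 CPM, with T3 1.86-fold below hypoxia (1.55 to 2.23). Adrb1, the beta-1 adrenergic receptor gene, read 7.65, 12.4 and 8.89 CPM, and the tyrosine kinase gene Lck read 3.94, 6.52 and 4.81 CPM. Pycrl, for an enzyme of proline synthesis, read 11.5, 18.0 and 14.2 CPM. The rest of this named group were Afap1l1 (3.89, 7.40 and 5.10 CPM), Tmem138 (4.03, 7.24 and 5.40 CPM) and Metap1d (5.01, 8.28 and 6.42 CPM). Under both other scalings Adrb1, Lck, Metap1d and Pycrl missed the rule too, and under that to the same sum also Ubald2 and Tmem138. In this direction hypoxia was the highest library. With T3 only 3 of the 31 genes had passed control under the deposited scaling. Some of the others stayed above it beyond counting error, as did Tmem138 (1.34-fold, 1.01 to 1.78) and Pycrl (1.23-fold, 1.04 to 1.46). The group is thin in reads: 19 of the 31 genes had a mean under 5 CPM.

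**Figure D2:**
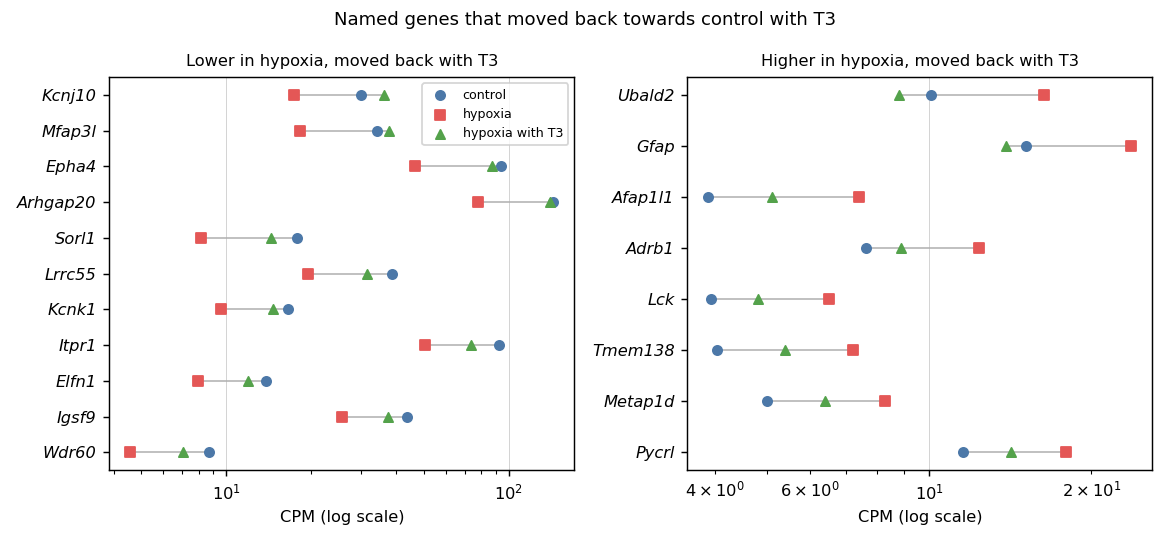
CPM (horizontal, log scale) of the named genes that moved back towards control with T3, with the control as blue circles, hypoxia as red squares and hypoxia with T3 as green triangles, 1 library each. On the left the hypoxia value is the lowest for every gene, as for Kcnj10 at 17.4 CPM, and on the right it is the highest, as for Gfap at 23.7 CPM.

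The Gfap window is printed as the promoter of a gene that met the moved-back rule under the deposited scaling, with capitals marking the core element AGGTCA that thyroid hormone receptors bind, on either strand. It lies at chr11:102897151-102897450 on the minus strand.
Gfap: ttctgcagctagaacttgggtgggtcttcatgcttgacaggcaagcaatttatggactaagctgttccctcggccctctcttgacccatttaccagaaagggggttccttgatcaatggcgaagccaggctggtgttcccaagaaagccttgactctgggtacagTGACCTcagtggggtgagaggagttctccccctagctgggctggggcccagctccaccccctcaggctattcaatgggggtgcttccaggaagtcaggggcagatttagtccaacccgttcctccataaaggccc
Its match starts 85 bases before the start site. AGGTCA occurs in 11.2% of windows of compared genes, in 13.0% of the 54 windows of genes low in hypoxia that moved back, and in 12.5% of the 24 windows of genes high in hypoxia that moved back. The direct repeat spaced by 4 bases, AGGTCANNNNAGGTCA, occurs in 0 of the 9536 windows.

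The TET dioxygenases, which oxidise methylated cytosine and need oxygen to do so, include a gene just short of the moved-back rule. Tet1 read 52.9 CPM in control, 35.6 in hypoxia and 61.8 with T3, so T3 was 1.74-fold above hypoxia (1.58 to 1.91) and 1.17-fold above control (1.08 to 1.26). Its log2 difference between hypoxia and control, -0.56, missed the 1.5-fold minimum under the deposited scaling. These Tet1 values, and the miss of the rule, are for that scaling only. Tet2 read 38.7, 31.5 and 40.9 CPM, and its small place above control turned to below when libraries were scaled to the same sum. Tet3 read 130, 63.2 and 71.1 CPM and stayed 1.83-fold below control (1.72 to 1.94). Under the deposited scaling the 3 paralogs thus differed in where the T3 library stood: highest of all for Tet1 and near hypoxia for Tet3. Of the DNA methyltransferases, Dnmt1 read 122, 113 and 111 CPM and Dnmt3a read 209, 167 and 189 CPM. Over the list of DNA demethylation genes 3 of 15 (20.0%, against 2.06% of all genes) were at least 2-fold higher than control, and these were the Gadd45 genes above. Over that of DNA methylation 3 of 14 (21.4%, against 4.59% of all genes) were lower: Mbd5 (56.5, 23.4 and 21.2 CPM) and the methyl-CpG binding zinc finger genes Zbtb4 (45.5, 23.7 and 19.9 CPM) and Zbtb38 (16.4, 7.07 and 7.61 CPM).

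Other genes stood farther from control with T3 than with hypoxia alone. The rule for moved further asks for at least 2-fold from control with T3, a log2 ratio of hypoxia over control of at least 0.32 in the same direction, a further step of at least 0.32 from hypoxia to T3, and an interval of that step that excludes 1. It held for 73 genes (0.575%), 27 of them higher (0.213%) and 46 lower (0.362%). The T3 library enters both of its ratios, so a deviation of that library alone and a further step cannot be told apart. Median log2 steps between the hypoxic libraries were 0.51 upward and 0.48 downward. Models or genes with near-identical copies made up 5 of the 27 and 7 of the 46.

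Cldn12, a tight junction protein gene, read 12.9 CPM in control, 26.8 in hypoxia and 61.7 with T3 (chromosome 5, 5489537 to 5514958, minus strand). It was 2.30-fold above hypoxia (2.08 to 2.56) and 4.79-fold above control (4.21 to 5.47). Bcl2l11, which encodes the death-promoting BCL-2 relative Bim, read 6.12, 9.39 and 22.2 CPM, 3.63-fold above control (2.99 to 4.43). Oxtr, the oxytocin receptor gene, read 0.556, 1.49 and 4.42 CPM, 7.95-fold above control with a wide interval (4.36 to 15.9). In these 3 genes control was lowest, hypoxia intermediate and hypoxia with T3 highest. Shh, the sonic hedgehog ligand and a known T3-induced gene, read 0.927, 6.08 and 11.4 CPM, 12.3-fold above control (7.80 to 20.5) and 1.88-fold above hypoxia (1.5 to 2.36). Its inhibitor Hhip, which binds the ligand at the cell surface, went the other way at 5.05, 2.93 and 1.66 CPM.

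Further named genes in the upward group were the death-associated kinase gene Stk17b (1.99, 3.48 and 7.40 CPM), the cytokine signalling inhibitor Socs3 (1.90, 3.53 and 6.08 CPM) and the kinase gene Cdk20 (8.53, 19.6 and 30.5 CPM). Camk2n1, an inhibitor of the calcium- and calmodulin-dependent kinase CaMKII, read 68.8, 97.1 and 140 CPM, and the actin-associated gene Tagln2 read 3.38, 5.25 and 8.16 CPM. Under both other scalings neither Camk2n1 nor Tagln2 met the rule. Rn45s, the ribosomal RNA precursor, also met it at 2598, 5119 and 8649 CPM, and its level depends on how much ribosomal RNA each library kept, which the files do not show. Nptx1, a neuronal pentraxin that clusters AMPA receptors, was picked after its values were seen and read 16.4, 35.8 and 51.5 CPM.

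The Oxtr window, at chr6:112489776-112490075 on the minus strand, is shown as the promoter of a gene whose level was highest with T3, with the core element AGGTCA in capitals.
Oxtr: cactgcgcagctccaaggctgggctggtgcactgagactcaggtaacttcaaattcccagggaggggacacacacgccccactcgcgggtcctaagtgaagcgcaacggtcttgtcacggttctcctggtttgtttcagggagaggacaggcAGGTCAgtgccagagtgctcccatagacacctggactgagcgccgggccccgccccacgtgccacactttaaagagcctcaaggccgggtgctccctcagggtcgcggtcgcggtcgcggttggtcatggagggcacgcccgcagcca
The match starts 98 bases before the start site. Of 17 windows of genes that moved further upward 2 hold it (11.8%, against 11.2% of all compared windows), those of Oxtr and the lipid transporter gene Mfsd2a, and of 32 windows of genes that moved further downward 1 does (3.13%).

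The named genes that were lower with hypoxia and lower still with T3 include guidance and adhesion proteins. Unc5c, a netrin receptor that mediates repulsion of axons, read 75.9 CPM in control, 13.8 in hypoxia and 8.42 with T3 (chromosome 3, 141465216 to 141834924, plus strand). It was 9.01-fold below control (7.77 to 10.5) and 1.63-fold below hypoxia (1.35 to 1.98). Slitrk4, a synaptic adhesion gene, read 42.0, 27.0 and 16.6 CPM, and the protocadherin gene Pcdh20 read 29.7, 11.7 and 7.74 CPM. The cadherin gene Cdh10 read 56.1, 12.9 and 8.76 CPM, 6.40-fold below control (5.52 to 7.46). For these 4 genes the order of the libraries was the same, with control highest and T3 lowest. Adcyap1, the neuropeptide PACAP, read 17.8, 11.4 and 7.31 CPM. Rorb, a nuclear receptor that marks layer 4 neurons and belongs to the clock list, read 58.8, 24.7 and 17.3 CPM, 3.41-fold below control (3.04 to 3.82). Nyap2 (9.50, 3.87 and 2.04 CPM), Atp10d (4.40, 2.98 and 1.28 CPM), the heparan sulfate sulfotransferase gene Hs3st5 (9.45, 2.54 and 1.32 CPM), Wdfy2 (6.07, 2.21 and 1.15 CPM) and Rassf5 (5.19, 2.43 and 1.36 CPM) were thinner in reads. Nwd2, picked after its values were seen, was abundant and read 297, 159 and 111 CPM.

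**Figure D3:**
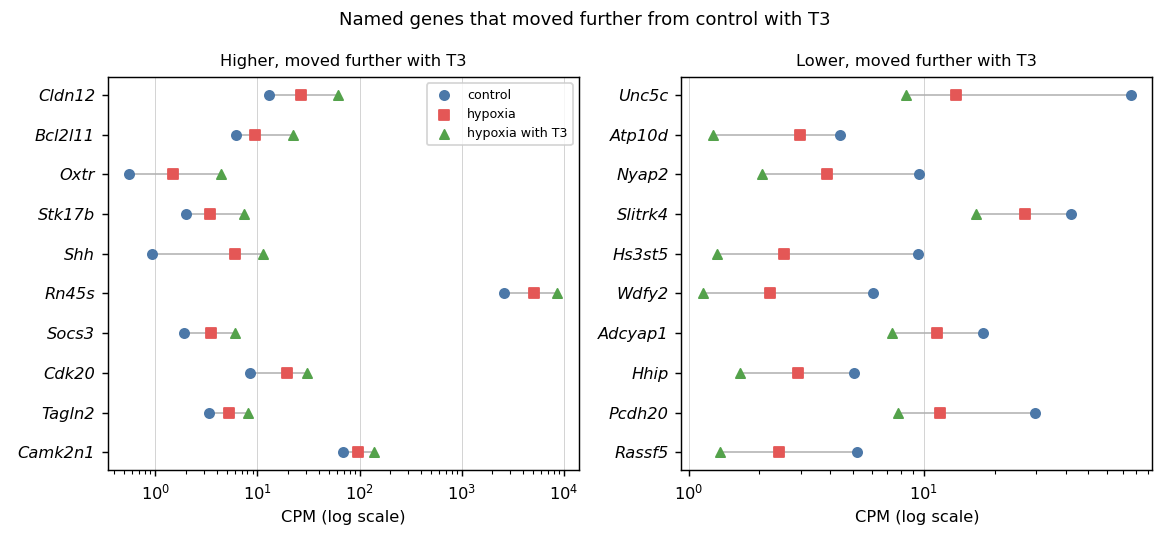
CPM (horizontal, log scale) of the named genes that moved further from control with T3, with the control as blue circles, hypoxia as red squares and hypoxia with T3 as green triangles, 1 library each. On the left T3 is the highest for every gene, as for Cldn12 at 61.7 CPM, and on the right the lowest, as for Unc5c at 8.42 CPM.

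The third group lay near control in hypoxia (a log2 ratio under 0.32 in size) and at least 1.5-fold from control with T3, with an interval of T3 over hypoxia that excludes 1. It held 56 genes (0.441%), 36 higher (0.284%) and 20 lower (0.158%). Hr, the corepressor Hairless and a direct receptor target, read 4.03 CPM in control, 4.75 in hypoxia and 23.9 with T3 (chromosome 14, 70552212 to 70573548, plus strand), 5.92-fold above control (4.71 to 7.5). Klf9, a Krueppel-like transcription factor, read 11.96, 13.4 and 35.8 CPM (chromosome 19, 23141226 to 23168134, plus strand), 2.99-fold above control (2.60 to 3.45). Cyp26b1, which degrades retinoic acid, read 7.51, 9.0 and 23.5 CPM, 3.13-fold above control (2.62 to 3.75). In these 3 the T3 library stood alone. Dbp, a transcription factor of the clock output, read 1.11, 1.60 and 3.83 CPM, and the mitochondrial arginase gene Arg2 read 6.72, 8.34 and 13.9 CPM. The smooth muscle protein gene Smtn read 2.83, 3.31 and 5.87 CPM.

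This group is called T3 only after its rule, which allows a small difference from control in hypoxia. Of its lower genes, Ndnf, a secreted neurotrophic factor, read 11.7, 10.6 and 6.76 CPM, and Klhl14 read 8.25, 6.57 and 4.34 CPM. The AMP deaminase gene Ampd3 read 3.15, 2.65 and 1.45 CPM, and the centriole kinase Plk4 read 10.5, 8.45 and 6.00 CPM. The integrin gene Itga8 read 4.77, 3.76 and 2.51 CPM, and the guidance ligand Sema3d read 5.75, 4.75 and 3.10 CPM. In each of these genes hypoxia alone already lay somewhat below control. Under the deposited scaling Plk4 was 1.24-fold below control in hypoxia (1.01 to 1.54), and for the others that interval held 1. With T3 the folds of these genes below control ran from 1.73 for Ndnf (1.42 to 2.13) to 2.18 for Ampd3 (1.42 to 3.39). Under both other scalings Klhl14, Plk4 and Itga8 did not meet the rule. Ampd3 and Sema3d missed it under the scaling to the same sum. Eif3j1 met the rule at 57.3, 61.7 and 28.7 CPM, but summed with its near-identical copy Eif3j2 the values were 58.3, 75.5 and 78.2 CPM, and the part of reads assigned between the copies was not tested. Granzyme genes, which encode proteases of cytotoxic lymphocytes, came up as a cluster on chromosome 14 that was picked after its values were seen. Gzmc read 1.44, 1.55 and 2.93 CPM, Gzmd 3.43, 3.31 and 5.70 CPM, Gzme 1.11, 1.33 and 2.81 CPM, and Gzmg 2.78, 3.37 and 5.02 CPM. Gzmd missed the rule under both other scalings, and Gzmc and Gzmg missed it under that to the same sum. These paralogs share part of their sequence (14.8% to 42.1% of their 31-base words occur in another gene), so their values are not separate observations. Of 28 windows of genes higher with T3 only, 7 hold AGGTCA (25%, against 11.2% of all compared windows), and 3 of the 7 are granzyme genes. Of 21 windows of genes known to be induced by thyroid hormone in other settings, 1 holds AGGTCA (4.76%).

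Genes known to be induced by thyroid hormone in other settings lay on both sides of control. Of 32 compared, 5 were at least 2-fold higher (15.6%, against 2.06% of all genes) and 4 lower (12.5%, against 4.59%), with a median log2 ratio of 0.25, and 5 of its members met the rule for T3 only, 1 that for moved further and 1 that for moved back. The higher members were Hr, Klf9, Cyp26b1, Dbp and Shh. Thrb, the beta receptor gene and itself on the list, was lower at 20.8, 5.19 and 5.10 CPM, 4.08-fold below control (3.33 to 5.03). Its hypoxic values did not differ beyond counting error. Thra, the alpha receptor gene, read 642, 882 and 878 CPM, 1.37-fold above control (1.34 to 1.40). Among partners of the receptors Rxra read 7.37, 3.87 and 3.32 CPM and the coactivator Ncoa2 read 130, 72.0 and 72.5 CPM, while Slc3a2, the heavy chain shared by amino acid and hormone transporters, read 113, 255.5 and 244 CPM. Dio3, the enzyme that inactivates T3, was under the minimum with 5 reads in control, 1 in hypoxia and 19 with T3, or 0.232, 0.0552 and 0.808 CPM, and its fold over control was 3.49 (1.26 to 11.9). Of 13 compared genes that thyroid hormone lowers in other settings, 1 was higher, Nr4a1 at 17.3, 199 and 154 CPM, and 0 were lower. The median of that list, 0.05, turned below 0 when libraries were scaled to the same sum. Over all lists and alternative settings such a change of sign was found 14 times, so list medians near 0 have no firm direction.

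**Figure D4:**
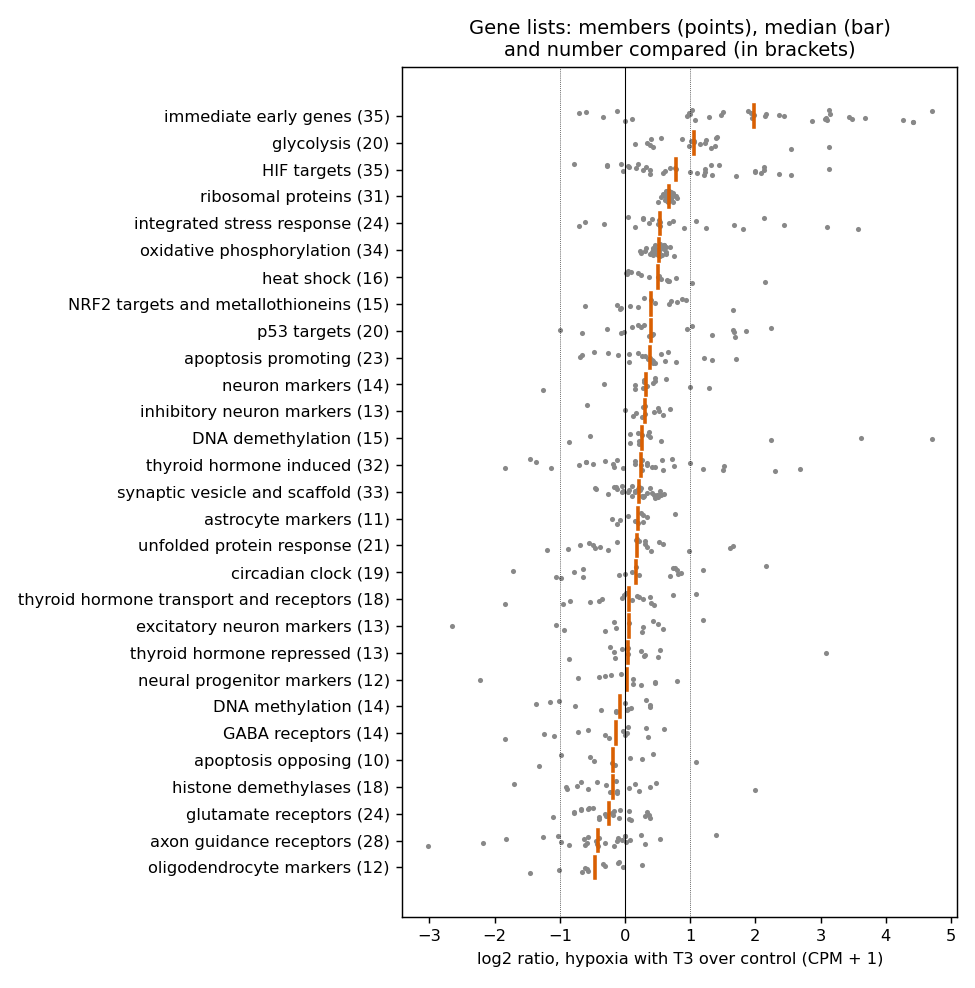
Log2 ratio of hypoxia with T3 over control (CPM + 1, horizontal) for each compared member of 29 gene lists (grey points), with the median as an orange bar, the number compared in brackets and dotted lines at 2-fold. Immediate early genes have the highest median at 1.98 and oligodendrocyte markers the lowest at -0.46.

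Several stress and death genes were above control in both hypoxic libraries. Some genes are on more than 1 of these lists, and the shares over all genes compared were 2.06% higher and 4.59% lower. Of 24 genes of the integrated stress response, which slows translation when proteins misfold or amino acids run short, 8 were higher and 0 lower (median log2 ratio 0.54). Atf3 read 0.602, 13.9 and 18.0 CPM and was 29.9-fold above control (17.3 to 56.5), and Ppp1r15a, which restarts translation, read 20.5, 188 and 183 CPM. Cebpb read 4.50, 35.8 and 28.8 CPM and Stc2 read 4.82, 23.0 and 24.4 CPM. Of 21 genes of the unfolded protein response 2 were higher, Herpud1 (24.3, 70.6 and 78.7 CPM) and Dnajb9 (21.0, 66.1 and 66.0 CPM), or 9.52%. The 1 lower gene of that list, the sensor Atf6 (33.7, 13.6 and 14.1 CPM), is a share of 4.76%, close to that over all genes. Of 20 p53 targets 7 were higher and 0 lower, among them Cdkn1a, the cell cycle inhibitor p21 (27.8, 86.1 and 91.9 CPM), Plk2 (135, 506 and 490 CPM) and Sesn2 (18.4, 63.7 and 60.6 CPM). Of 23 genes that promote apoptosis 3 were higher: Bcl2l11 above, Pmaip1, which encodes Noxa (10.7, 25.2 and 28.6 CPM), and the mitophagy receptor Bnip3 (43.6, 95.1 and 103 CPM). Of 10 that oppose it, Mcl1 was higher (99.7, 203 and 213 CPM) and Bcl2 lower (22.01, 9.44 and 8.25 CPM). Bax read 36.9, 51.7 and 50.2 CPM. The heme-degrading enzyme Hmox1, the single NRF2 target of 15 beyond 2-fold, read 5.14, 23.9 and 18.5 CPM.

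Ribosomal protein and oxidative phosphorylation genes lay above control as groups without any member reaching 2-fold. All 31 ribosomal protein genes had log2 ratios above 0 and 0 reached 2-fold, with a median of 0.67, as in Rpl18 (107, 190 and 187 CPM) and Rplp0 (413, 710 and 701 CPM). The same held for all 34 oxidative phosphorylation genes, with a median of 0.52, as in Ndufa1 (17.3, 30.3 and 29.8 CPM) and Cox4i1 (129, 198 and 200 CPM). Over all genes compared the median was 0.08, or -0.10 when libraries were scaled to the same sum. Genes spanning under 10 kb of genome had a median of 0.33 and a lower quartile of 0.04. The part of gene span in the 2 list medians was not tested. Of 18 histone demethylases, most of which need oxygen, the HIF target Kdm3a was higher (48.3, 199 and 196 CPM) and Kdm6a lower (28.6, 8.01 and 8.08 CPM). Each is 5.56% of the list, against 2.06% higher and 4.59% lower over all genes, so the lower share is near that of all genes.

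Some receptor genes of synapses were below control. Over all genes 4.59% were lower and 2.06% higher. Among genes spanning 100 to 300 kb 17.1% were lower, and the part of gene span in the shares below was not tested. Of 14 GABA receptor genes 3 were lower (21.4%) and 0 higher, among them Gabrb2 (190, 78.4 and 79.3 CPM) and Gabra4 (43.0, 20.7 and 19.6 CPM). Of 24 glutamate receptor genes 1 was lower, the NMDA subunit gene Grin2a (10.4, 3.81 and 4.34 CPM), a share of 4.17% that is near that of all genes. Genes of synaptic vesicles and scaffolds had 0 of 33 members beyond 2-fold in either direction, with Vamp2 at 671, 976 and 990 CPM. Of 28 axon guidance receptors 5 were lower (17.9%) and 1 higher (3.57%), with a median of -0.41. The lower ones included Nrp1, the semaphorin co-receptor (81.8, 21.5 and 17.3 CPM), and Epha3 (21.5, 4.47 and 5.36 CPM), and the higher one was Ephb3 (12.1, 27.3 and 33.5 CPM). Oligodendrocyte markers had a median of -0.46 and 11 of 12 compared below 0, with the progenitor genes Pdgfra (63.2, 27.2 and 22.3 CPM) and Olig2 (87.4, 41.4 and 42.8 CPM) beyond 2-fold. The 12 progenitor markers were split, 6 above and 6 below control with a median of 0.03, and the Notch effector Hes5 was the single one beyond 2-fold (10.2, 1.38 and 1.40 CPM), while its relative Hes1 read 2.18, 2.98 and 4.55 CPM. Of 19 clock genes 2 were higher and 2 lower, among them Ciart (1.81, 8.56 and 11.6 CPM) and Npas2 (7.42, 2.65 and 3.06 CPM). Bdnf, the neurotrophin gene, read 17.2, 18.9 and 15.8 CPM.

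Called genes differed in how much genome they span. The span from first to last annotated base (GENCODE M21, GRCm38) was known for 12607 genes, 99.3% of those compared, and its median was 25.8 kb. Genes higher in hypoxia with T3 than in control had a median span of 7.27 kb and lower genes of 124 kb. In genes under 10 kb 5.39% were higher and 0.881% lower, and from 100 to 300 kb 0.0654% were higher and 17.1% lower. Of 496 genes of at least 300 kb, 15.5% were lower and 0 higher. Between the hypoxic libraries no such course was seen. The median log2 ratio of T3 over hypoxia lay between -0.007 (under 10 kb) and 0.02 (30 to 100 kb) in every span class. Nckap5 spans 917 kb and Fos 3.38 kb. Genes that moved further down had a median span of 150 kb, near that of all lower genes, from which the rule takes them. Low genes that moved back had one of 34.3 kb, and their rule selects against a difference from control with T3, so the contrast between these groups follows in part from the rules. The share that moved back had no steady course: it was 0.644% under 10 kb, 0.428% from 10 to 30 kb, 0.683% from 30 to 100 kb, 0.982% (15 genes) from 100 to 300 kb and 0.202% (1 gene) at 300 kb or more, while the share that moved further down was 0.169% under 10 kb and 1.81% (9 genes) at 300 kb or more.

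**Figure D5:**
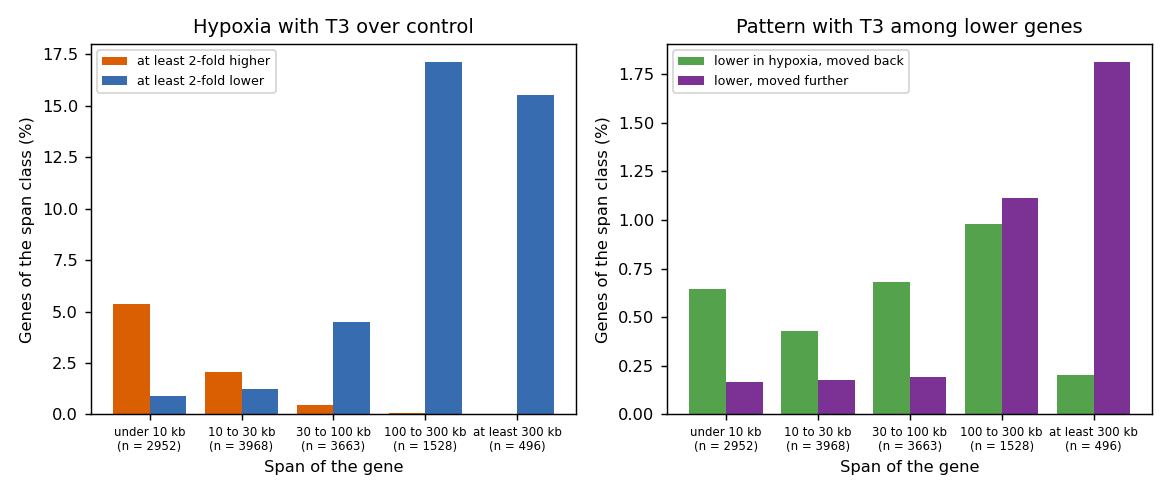
Percent of genes in each span class (bars, from 0) that were at least 2-fold higher or lower with hypoxia and T3 than control (left), and that were low and moved back or further down with T3 (right). The lower share reaches 17.1% at 100 to 300 kb and the share that moved further down 1.81% at 300 kb or more.

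The authors' deposited table for this comparison lists 13152 genes, each with a p and a rate of false discoveries, and the test behind them is not given in the sources used here. A rate below 0.05 was given by the authors' deposited table to 104 genes, 53 higher and 51 lower, and for 91 the values here were 2-fold or more apart. That set of the authors' deposited table held 14 genes that moved further, 4 apart with T3 only and 0 that moved back. These counts follow largely from the rules, since the rate is for the same contrast and moved-further genes had to be 2-fold from control with T3. An unadjusted p below 0.05 was listed for 813 genes in the authors' deposited table.

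At the edges of the rules, H2-T10 was just inside the minimum mean (1.07, 0.828 and 1.11 CPM) and Ttn just outside (mean 0.996 CPM). Ptbp1 was just inside 2-fold higher (36.2, 75.7 and 73.4 CPM) and C2cd4b just outside (2.46, 5.96 and 5.91 CPM). Zfp37 was just inside 2-fold lower (23.5, 11.0 and 11.3 CPM) and Zmat1 just outside (5.93, 2.49 and 2.47 CPM).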

How the data were processed

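Strand-specific libraries (KAPA kit, per the labels' protocols) of total RNA were analysed, 1 per group, with groups taken from the treatment labels. The authors deposited CPM, scaled by TMM per the name of the file. Of the tools named in the submitters' processing notes (RSEM 1.2.15, Bowtie2 2.1.0 and bcl2fastq 2.17, with build mm10) no role is given. Whole reads were recovered: 100% of values were whole multiples, within 0.01, of 1 read. A read was worth 0.0463 CPM in control, 0.0552 in hypoxia and 0.0425 with T3, and the limit allowed by a count of 0 (3 reads) was 0.139, 0.166 and 0.128 CPM. Reads carry no molecular identifiers, so intervals and floors cover counting error only. The authors' deposited table of this comparison holds, per the file headers, a signed fold (a score below 0 where hypoxia with T3 is lower), a p-value and an adjusted one, and a signal per library on another scale that was not used.

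Members and gene lists were chosen with earlier results of these data known. The genes named were the 12 highest and 12 lowest and the 12 per direction with the largest step among those that moved back, all with a mean of at least 5 CPM, the 12 per direction that moved further and the 8 per direction with T3 only (mean of at least 2 CPM), up to 4 per list and some fixed genes. Predicted models and genes with copies (at least 50% of 31-base words found in another gene) were only counted, as 3 of the 12 highest and 1 of the 12 lowest. A few genes picked by these rules are not reported here. Promoter windows came from RefSeq, 1 per gene. Ratios and exact intervals were checked on counts simulated with counting error only, which checks the calculation and not the spread between cultures. Python 3.11.15 was used with matplotlib 3.10.9, scipy 1.17.1, pandas 2.3.3 and numpy 2.4.6.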

Additional observations from a re-analysis of the deposited data

How the results depend on the processing

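No library could be left out and no count test across replicates was run. No paired analysis was possible because each group has 1 library. Adding 5 CPM in place of 1 gave 167 higher and 269 lower genes, 4 high and 18 low genes that moved back, 11 higher and 15 lower that moved further, and 20 higher and 5 lower with T3 only. A minimum mean of 5 CPM gave 12 high and 43 low genes that moved back, and 17 higher and 8 lower with T3 only. Scaling to the same sum gave 920 lower genes and 23 higher with T3 only. Under that scaling 18 of the 31 high and 41 of the 77 low genes that moved back kept the pattern, as did 21 of 27 and 46 of 46 that moved further and 16 of 36 and 10 of 20 apart with T3 only. An alternative chosen after seeing the data, without predicted models and genes with copies, gave 237 higher and 553 lower genes. The other counts under these alternatives, and those with 0.25 CPM added, no filter on low values or median-of-ratios size factors, stayed within 1.5 times the reported ones. Depth limits genes with few reads, such as Oxtr, most.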
